A study of Arabidopsis thaliana with 18 samples.

Results

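The UDP-glycosyltransferase (UGT) genes of Arabidopsis thaliana were followed in the accession Van-0 on arrays of plants given salicylic acid (SA) or its carrier. Members were the genes whose symbol is UGT followed by 2 digits, a letter and a number and which had a probe set naming that gene alone, with UGT76B1 left out. This gave 46 genes, each with 1 probe set, in 20 lettered subfamilies, of 13356 genes that had such a probe set among the 22810 of the ATH1 array. The TAIR10.1 gene table holds 58 symbols of this pattern. The SA group held 9 arrays of plants given 0.3 mM SA in 0.02% silwet, and the silwet group 9 arrays of plants given 0.02% silwet alone. Silwet is a wetting agent that helps a solution spread over the leaf, and both groups carried it. The labels used here give no tissue, age or time after treatment.

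The arrays also fall into runs of 3 consecutive title numbers, 3 runs for each treatment, called title sets here. Set 1 holds arrays 1 to 3 of each treatment, set 2 arrays 4 to 6 and set 3 arrays 7 to 9, and each set holds every Rep number, from 1 to 3, once in each treatment. No label says what a title set marks. Values are MAS5 signals, the brightness of a probe set on 1 array, scaled so that the trimmed mean of every array was 100. Since probe sets differ in how brightly they light up, signals are compared between arrays and not between genes.

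UGTs transfer a sugar, usually glucose from UDP-glucose, to a small molecule, and so make it more soluble and often inactive or ready for storage in the vacuole. Their acceptors in Arabidopsis include hormones (SA, auxin, cytokinin, abscisic acid), phenylpropanoids and flavonoids, glucosinolate precursors and foreign compounds such as herbicides. SA itself is stored as a glucoside and a glucose ester, so the family holds enzymes that remove the hormone that was applied. Within the family, the number names a family, the letter a subfamily and the last number the gene, and close relatives often lie side by side in the genome.

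Several arrays stood apart before any comparison of treatments. On the first principal component of all probe sets kept, which carried 38.7% of the variance, SA arrays 1 to 3 scored 55.9 to 70.9. Silwet 2 and silwet 3 scored 47.4 and 58.0, whereas silwet 1 of the same title set scored -37.1, within the range of sets 2 and 3. Whether silwet 1 belongs to the title set that its title number gives could not be checked from the labels. It is 1 of 3 silwet arrays behind each difference in set 1. Values without it are given there for UGT73B4, UGT73B5, UGT73D1, the counts called and the median difference, and not for other genes. Silwet 4 and silwet 7 had a ratio of 5′ to 3′ signal for the GAPDH control, a measure of RNA or labelling quality, of 0.465 and 0.225, against 0.767 to 1.29 on the other 16 arrays. The median signal of an array ran from 23.3 to 36.6. Of the tissue markers, the green tissue gene RCA had signals of 2312 to 4059 on SA arrays and 1429 to 3755 on silwet arrays. It was the 1 green tissue marker of 6 whose symbol matched a probe set naming 1 gene. The root hair genes EXPA7 and EXPA18 summed to 18.2 to 37.2 on SA arrays and 10.7 to 38.8 on silwet arrays (2 of 5 markers measured), and the stomatal lineage genes FMA and MUTE to 28.1 to 66.0 and 33.4 to 63.7 (2 of 3). None of the 4 flower markers matched a probe set naming 1 gene, and 8794 of the 22810 probe sets had no gene listed.

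Of the 46 genes, 31 from 18 subfamilies were bright enough to be tested among 15922 probe sets, and 15 had a mean signal below the threshold of 10.9 that left out the dimmest 30%. The threshold fell between UGT85A3, the dimmest gene kept with a mean of 11.1, and UGT71C2, the brightest left out with 10.4. Genes that passed only because they were high in some arrays are among the 31, so counts over them describe these probe sets and not the whole family. Differences are on the log2(signal + 2) scale, which understates changes of dim signals. They come with their standard error (SE) and a two-sided p from limma, adjusted over all 15922 probe sets by the Benjamini-Hochberg method, with a threshold of 0.05. Because whole samples were measured, a change in the number of cells that hold a transcript and a change in its amount per cell cannot be told apart.

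**Figure D1:**
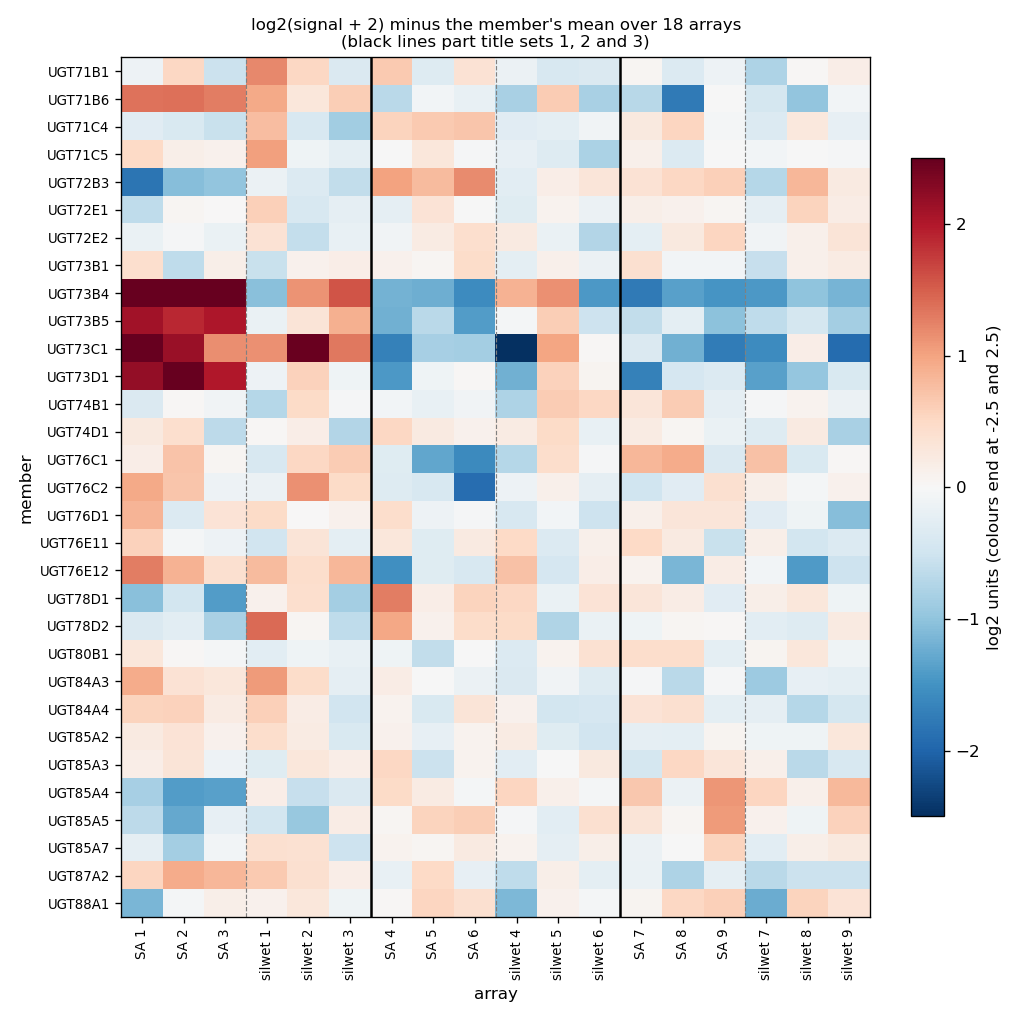
Each row is 1 of the 31 tested UGT genes and each column 1 of the 18 arrays, with SA left of silwet within title sets 1, 2 and 3. Colour gives log2(signal + 2) minus the gene's own mean, red above and blue below, and the rows of UGT73B4, UGT73B5 and UGT73D1 are reddest on the 3 SA arrays of set 1.

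Over all 9 SA arrays against all 9 silwet arrays, no UGT gene passed the threshold, and 0% of all probe sets did. The smallest adjusted p of any probe set was 0.522, and limma gave 242 probe sets (1.52%) an unadjusted p under 0.05. Among the UGT genes, 22 had a higher mean with SA and 9 a lower one, and 46.5% of all probe sets were higher. Their median difference was 0.14 and that of all probe sets -0.02, with single genes between -0.33 and 0.65. The median was 0.04 without SA 2, 0.05 without SA 1, 0.09 without silwet 6 or silwet 7 and 0.04 without silwet 4 and silwet 7 together.

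UGT84A4, which makes glucose esters of hydroxycinnamates, was the 1 UGT gene with an unadjusted p under 0.05. Its signal ranged from 19.6 to 39.8 with a median of 32.9 on SA arrays, against 15.0 to 40.5 with a median of 18.9 on silwet arrays, and the groups overlapped. The difference was 0.42 ± 0.19 (SE, n = 9 each; adjusted p = 1, limma). Its unadjusted p in limma was 0.0376. UGT76D1, which glucosylates dihydroxybenzoic acids formed from SA, came next with a difference of 0.41 ± 0.20 (SE, n = 9 each; adjusted p = 1, limma). Its signal was 8.47 to 21.8 on SA arrays, with a median of 14.3, against 4.33 to 16.5 on silwet arrays, with a median of 10.3. The mean of UGT76D1 over all silwet arrays, 9.95, lies below the dimness threshold, so it was tested through its SA arrays. Its rank is a description.

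The next 4 genes by p were UGT71C4 (0.31 ± 0.22), UGT73D1 (0.65 ± 0.53), UGT87A2 (0.28 ± 0.24) and UGT76C2 (-0.33 ± 0.29), all with an adjusted p of 1 in limma. UGT73D1 was at 0.36 without SA 2 and 0.42 without SA 1, UGT87A2 at 0.18 without SA 2, and UGT76C2 at -0.12 without SA 6 and -0.21 without silwet 2. UGT76C2, a cytokinin N-glucosyltransferase, was the lowest of all. For UGT73D1 the SE is nearly as large as the difference because its signal ran from 11.5 to 276.2 across the 9 SA arrays. The spread between title sets was therefore looked at next.

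UGT88A1 and UGT74B1 had the highest mean signals of the family, followed by UGT71C4. UGT88A1 had 245.2 to 822.7 on SA arrays, with a median of 604.7, against 228.1 to 803.3 on silwet arrays, with a median of 582.9. Its low values were on SA 1, silwet 4 and silwet 7, and the last pair are the arrays with the low GAPDH ratio. UGT74B1, which makes the thiohydroximate glucoside on the way to glucosinolates, had 183.0 to 366.3 on SA arrays, with a median of 220.8, against 136.5 to 364.5 on silwet arrays, with a median of 230.9. The groups overlapped fully for both genes.

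Within title set 1, 3 genes of the UGT73 family stood well above silwet on every SA array, and 2 of them rose. UGT73B5 and UGT73D1 passed the threshold, 2 of 31 genes (6.45%), where 0.81% of all 15922 probe sets did, and 0.458% in the upward direction. No UGT gene fell, and 0.352% of all probe sets did. At an unadjusted p under 0.05 in limma there were 6 UGT genes, 3 higher and 3 lower, and 12.6% of all probe sets.

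UGT73B5, which conjugates xenobiotics and has been linked to the response to pathogens, had signals of 160.0, 137.1 and 152.8 on the SA arrays of set 1. On the silwet arrays of set 1 it had 31.7, 45.4 and 68.5, so every SA array lay far above every silwet array. The difference was 1.65 ± 0.32 (SE, n = 3 each; adjusted p = 0.0253, limma), 3.14-fold, with a 95% interval of 0.97 to 2.33.

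UGT73D1 had signals of 199.2, 276.2 and 173.2 on SA arrays and 37.6, 62.9 and 38.6 on silwet arrays of set 1. These groups were also well apart, with a difference of 2.18 ± 0.49 (SE, n = 3 each; adjusted p = 0.0446, limma), 4.55-fold, and an interval of 1.16 to 3.21.

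UGT73B4, a close relative that acts on breakdown products of the explosive TNT, had signals of 125.7, 98.6 and 65.5 on SA arrays of set 1. On silwet arrays it had 2.61, 18.9 and 26.6, and the groups did not overlap. Its difference of 2.77 ± 0.64 was larger than those of both called genes but more variable, and it missed the threshold (SE, n = 3 each; adjusted p = 0.0545, limma). Silwet 1, the array that scored apart from its title set, held the lowest silwet value of UGT73B4, and without it the difference was 1.96 (adjusted p = 0.196, limma). The gene passed without silwet 3 (3.28, adjusted p = 0.0357), silwet 4 (2.77, 0.0399) or silwet 6 (2.77, 0.025). Its mean over all silwet arrays lies below the dimness threshold, so it was tested through the SA arrays of set 1, and its log2 value depends on the pseudocount, at 1.86 with a pseudocount of 16 (adjusted p = 0.00451, limma).

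These calls depended on single arrays and on the model. With the Rep number as a block, UGT73B4 was called as well (adjusted p = 0.0418, limma), and 280 probe sets in all were called in place of 129. Without silwet 4 and silwet 7, the arrays with the low GAPDH ratio, UGT73B4 passed too (adjusted p = 0.0409), among 324 probe sets. UGT73B5 lost its call when SA 1, SA 2, SA 3, silwet 1 or silwet 2 was left out, with adjusted p between 0.0832 and 0.121 and differences between 1.39 and 1.71. UGT73D1 lost its call when any of SA 1, 2, 3, 5, 6 or 8 or silwet 1, 2, 3, 6, 8 or 9 was left out, with adjusted p between 0.0536 and 0.173, while its difference stayed between 1.99 and 2.42. Without silwet 1, no UGT gene and 63 probe sets in all were called, with UGT73B5 at 1.39 (adjusted p = 0.0924, limma) and UGT73D1 at 2.06 (adjusted p = 0.129).

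**Figure D2:**
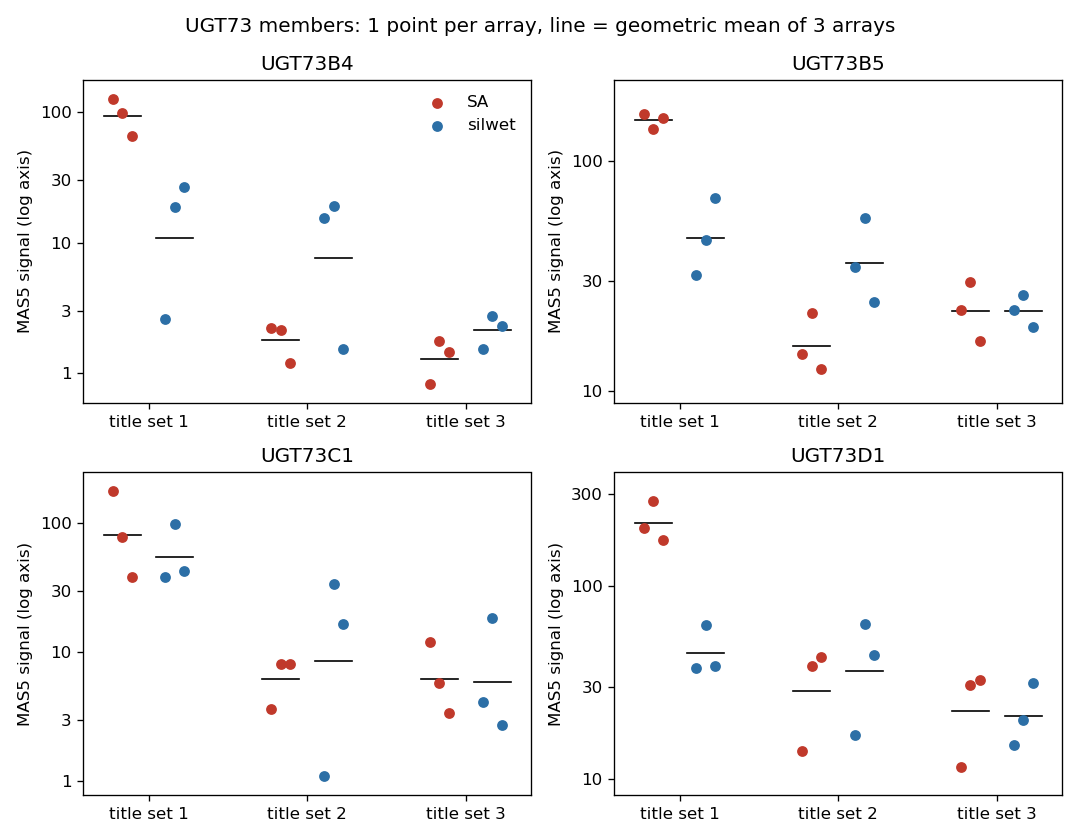
Each point is the MAS5 signal of 1 array on a log axis for UGT73B4, UGT73B5, UGT73C1 and UGT73D1, with SA (red) left of silwet (blue) in each title set and a line at the geometric mean of 3 arrays. In set 1 the SA points of UGT73B4, UGT73B5 and UGT73D1 lie above every silwet point, as in 65.5 to 125.7 against 2.61 to 26.6 for UGT73B4.

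The other tested UGT73 genes overlapped between treatments in set 1. UGT73C1, known to act on xenobiotics and cytokinins, had signals of 176.8, 78.5 and 38.6 on SA arrays and 38.1, 98.0 and 42.9 on silwet arrays. These overlapped widely, and the difference was 0.57 ± 0.78 (SE, n = 3 each; adjusted p = 0.846, limma). UGT73B1 differed by 0.07 ± 0.31 (adjusted p = 0.964).

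Of UGT74F1, UGT71C3 and UGT76D1, members looked at here for acting on SA or its relatives, UGT76D1 was the 1 that could be tested. UGT74F1, which makes the SA glucoside, was dim throughout, with signals of 2.87, 1.55 and 2.45 on SA arrays and 0.827, 1.61 and 7.74 on silwet arrays of set 1, and was not tested. UGT71C3, known for glucosylating methyl salicylate, was also below the threshold on average. It had 10.9, 10.4 and 7.64 on SA arrays and 7.75, 6.67 and 0.895 on silwet arrays of set 1. UGT76D1 differed by 0.09 ± 0.34 in set 1 (SE, n = 3 each; adjusted p = 0.961, limma). UGT74F2 and UGT75B1 matched no probe set that the annotation used names with 1 gene.

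UGT72B3 and UGT85A4 were lower on every SA array of set 1 than on every silwet array, without passing the threshold. UGT72B3 had 18.1, 32.2 and 34.0 with SA and 63.0, 54.1 and 44.6 with silwet, a difference of -0.93 ± 0.33 (SE, n = 3 each; adjusted p = 0.214, limma). UGT85A4 had 15.97, 10.2 and 10.6 with SA and 33.7, 19.6 and 23.0 with silwet, a difference of -0.93 ± 0.32 (adjusted p = 0.195). UGT78D1, the flavonol rhamnosyltransferase, had 47.7, 72.5 and 37.0 with SA and 108.4, 136.4 and 55.4 with silwet. Its SA and silwet values overlapped, and the difference was -0.87 ± 0.35 (adjusted p = 0.294).

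Counted by overlap alone, 5 UGT genes were higher on all 3 SA arrays of set 1 than on all 3 silwet arrays, where 8.62% of all probe sets were, and 2 were lower, where 10.1% were. The 5 were UGT71B6, UGT73B4, UGT73B5, UGT73D1 and UGT80B1. Among the 31 genes, 20 had a higher mean with SA, and 49.1% of all probe sets did. The median difference was 0.07, and -0.01 over all probe sets. It was -0.02 without SA 2, 0.00 without silwet 3, 0.02 without SA 1, 0.18 without silwet 2, 0.19 without SA 3 and 0.22 without silwet 1. Scaling moved the count of higher genes to 19 (quantile normalization) or 17 (median centring), through UGT76C2, UGT71C5 and UGT72E2, whose differences lie near 0.

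In title set 2 no UGT gene passed the threshold and 0% of all probe sets did, with a smallest adjusted p of 0.0847. At an unadjusted p under 0.05 in limma there were 4 UGT genes and 1725 probe sets in all (10.8%). UGT73B5, high with SA in set 1, was lower with SA in set 2. Its signals were 14.4, 21.7 and 12.4 on SA arrays and 34.4, 56.0 and 24.4 on silwet arrays, which did not overlap, with a difference of -1.10 ± 0.32 (SE, n = 3 each; adjusted p = 0.45, limma).

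UGT72B3 had the opposite sign in set 2 as well. It had 140.6, 122.3 and 159.7 on SA arrays of set 2 and 57.9, 78.2 and 86.1 on silwet arrays, without overlap, and its difference was 0.92 ± 0.33 (adjusted p = 0.45, limma). UGT71C4 had 253.5, 269.8 and 278.1 on SA arrays and 140.4, 144.8 and 161.5 on silwet arrays, a difference of 0.84 ± 0.31 with the same adjusted p. All 3 SA arrays of UGT71C4 thus lay well above the silwet arrays of set 2, where in set 1 they lay among them, at 139.7, 130.6 and 115.4 against 296.2, 130.0 and 93.2.

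UGT73B4 was near the floor on the SA arrays of set 2, at 2.23, 2.15 and 1.20, and uneven on silwet arrays, at 15.6, 19.1 and 1.53. Its difference was -1.51 ± 0.64 (adjusted p = 0.45, limma). By overlap, 3 UGT genes were higher with SA in set 2 (UGT71C4, UGT71C5 and UGT72B3), where 7.66% of all probe sets were, and 2 were lower (UGT73B5 and UGT76C2), where 10.5% were. A higher mean with SA was seen in 20 of 31 genes and 48.5% of all probe sets. The median difference was 0.16, and -0.02 over all probe sets, which median centring moved by 0.17.

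In title set 3 no UGT gene passed either, with 0% of all probe sets called. At an unadjusted p under 0.05 in limma there were 1 UGT gene and 1.96% of all probe sets. UGT76D1 had 12.4, 14.3 and 14.4 on SA arrays and 8.89, 10.3 and 4.33 on silwet arrays. The groups did not overlap, which held upward for 3.68% of all probe sets, and UGT76D1 was the 1 such UGT gene, with none downward (4.62% of all). Its difference was 0.73 ± 0.34 (SE, n = 3 each; adjusted p = 0.991, limma). On the silwet arrays of set 3 its mean of 7.85 lies below the dimness threshold. UGT84A4 differed by 0.64 ± 0.30 and UGT85A3, close to the dimness threshold, by 0.46 ± 0.35, each with an adjusted p of 0.991 in limma. The mean of UGT85A3 over all silwet arrays, 10.2, lies below that threshold, so UGT85A3 was tested through its SA arrays. In this set UGT73B5 overlapped between treatments, at 22.5, 29.8 and 16.5 with SA and 22.4, 26.1 and 18.9 with silwet. A higher mean with SA was seen in 23 of 31 genes and 54.1% of all probe sets here, but in 19 after quantile normalization and 17 after median centring.

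The test of whether the SA difference changed between title sets was passed by UGT73B5 (adjusted p = 0.0378, limma F-test), 1 of 31 genes (3.23%), where 0.17% of all probe sets passed. At an unadjusted p under 0.05 there were 5 UGT genes and 12.4% of all probe sets. Its 3 differences were 1.65 in set 1, -1.10 in set 2 and 0.00 in set 3. UGT73B4 (adjusted p = 0.0794), UGT72B3 (0.142), UGT73D1 (0.164) and UGT78D1 (0.403) followed without passing.

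With the Rep number as a block UGT73D1 passed as well (adjusted p = 0.0395, limma), among 184 probe sets in all in place of 27, and UGT73B5 passed with 0.0217. Without silwet 4 and silwet 7 both passed, among 437. The call of UGT73B5 was lost when SA 1, 2, 3, 4, 6 or 7 or silwet 1, 2, 5, 7 or 8 was left out, with adjusted p between 0.0516 and 0.145. It was also lost with median centring (0.0507) and with no filter on dim probe sets (0.0645).

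**Figure D3:**
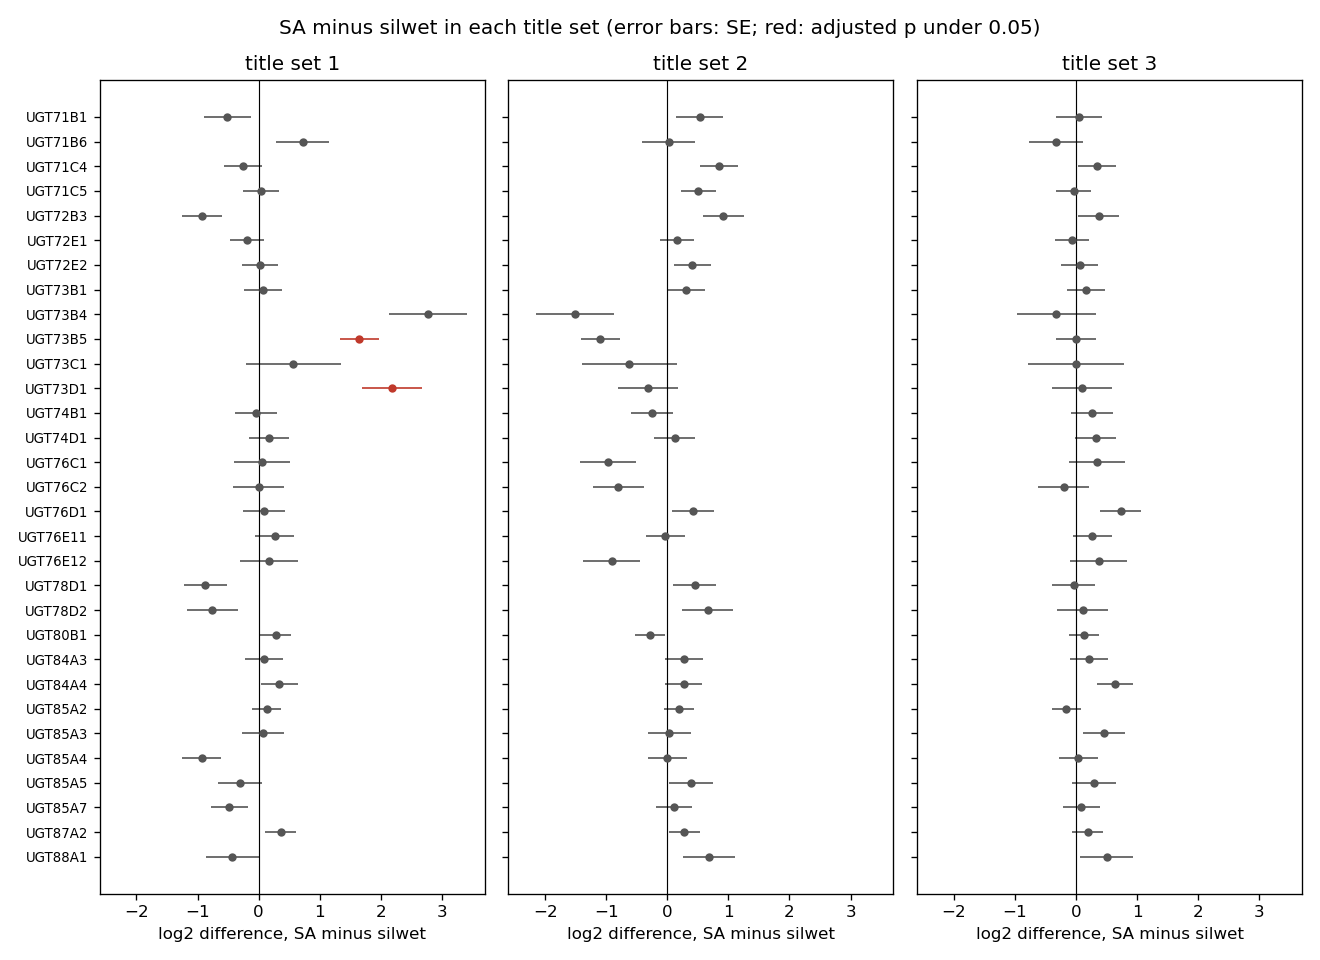
The log2 difference, SA minus silwet, of each of the 31 tested UGT genes is shown for title sets 1, 2 and 3, with bars of 1 SE and genes past an adjusted p of 0.05 in red. UGT73B5 and UGT73D1 are the red points of set 1, at 1.65 and 2.18, and no point of set 2 or set 3 is red.

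**Figure D4:**
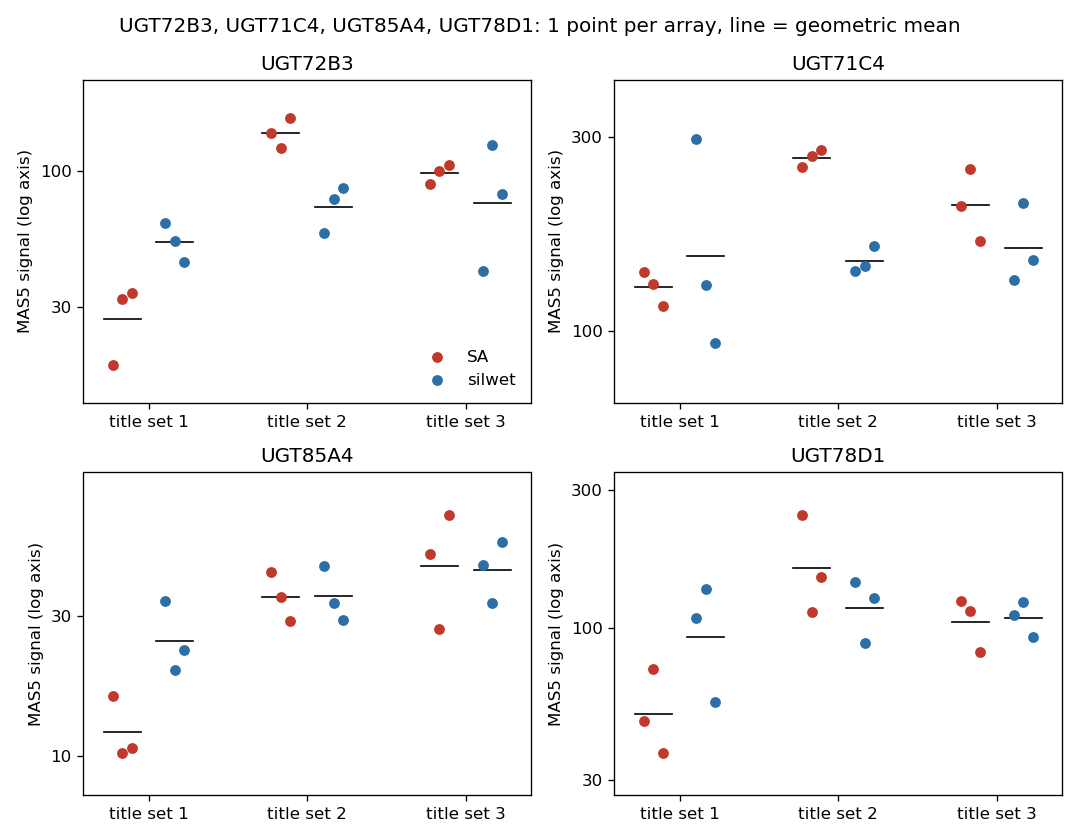
Each point is the MAS5 signal of 1 array on a log axis for UGT72B3, UGT71C4, UGT85A4 and UGT78D1, with SA (red) left of silwet (blue) in each title set and a line at the geometric mean. UGT72B3 lies below silwet in set 1 (18.1 to 34.0 against 44.6 to 63.0) and above it in set 2 (122.3 to 159.7 against 57.9 to 86.1).

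More UGT genes passed for the title set than for the treatment. With both treatments fitted, 12 of 31 genes (38.7%) differed between title sets at the threshold (limma F-test), and so did 19.3% of all probe sets. Set 1 was then set apart from the others. Against the mean of sets 2 and 3, 13 genes (41.9%) passed, 9 higher and 4 lower, where 25.8% of all probe sets passed, 11.6% higher and 14.2% lower. Of the 9, UGT73B4, UGT73C1, UGT71B6 and UGT76E12 had means of 4.37, 9.82, 10.8 and 8.40 in sets 2 and 3, below the threshold for dim probe sets. They were tested only because they were high in set 1, and all are among the 12 and the 13 genes as well. The counts of 12, 13 and 9 genes and their shares are therefore descriptions. Between sets 2 and 3 no UGT gene passed, where 0.0314% of all probe sets did. Of the 31 genes, 2 had an unadjusted p under 0.05 there in limma, as did 5.79% of all probe sets. They were UGT76C1 at -0.88 ± 0.35 and UGT87A2 at 0.38 ± 0.18. What parts the title sets is not stated, so these differences carry no named condition.

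Of the 5 tested genes numbered UGT73, 4 were called higher in set 1, where 11.6% of all probe sets were. UGT73B4 and UGT73C1 are among the genes tested only because they were high in set 1. UGT73C1, whose treatments overlapped, ran from 38.1 to 176.8 on the 6 arrays of set 1 against 1.09 to 34.0 on the 12 arrays of sets 2 and 3. Among the 31 tested UGT genes it was the 1 whose arrays did not overlap between set 1 and the others in both treatments together. This held upward for 2.18% of all probe sets and downward for 1.44%. The difference was 2.89 ± 0.46 (SE, n = 6 and 12; adjusted p = 0.0002, limma).

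UGT73B4 differed by 2.90 ± 0.58 (adjusted p = 0.00124, limma), with 0.832 to 19.1 in sets 2 and 3 and its silwet arrays of set 1 at 2.61, 18.9 and 26.6. With a pseudocount of 16 the differences were 1.55 for UGT73B4 and 1.78 for UGT73C1. UGT73D1 differed by 1.81 ± 0.39 (adjusted p = 0.0023) and UGT73B5 by 1.77 ± 0.34 (0.000835). In sets 2 and 3, UGT73D1 ran from 11.5 to 63.3 over both treatments, so its 3 silwet arrays of set 1, at 37.6 to 62.9, lay within that range and only its SA arrays lay above it. The same held for UGT73B5, at 31.7 to 68.5 on silwet arrays of set 1 against 12.4 to 56.0 in sets 2 and 3, apart from silwet 3 with 68.5. UGT73B1 differed by -0.09 ± 0.18 (adjusted p = 0.744).

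Among the hormone-conjugating members, UGT71B6, an abscisic acid glucosyltransferase, rose in set 1. It had 40.3, 40.8 and 38.5 on SA arrays and 29.7, 18.2 and 23.4 on silwet arrays of set 1, against 2.85 to 23.7 in sets 2 and 3, a difference of 1.46 ± 0.28 (SE, n = 6 and 12; adjusted p = 0.000849, limma). Its SA arrays of set 1 lay above every other array of this gene. UGT71C5, another abscisic acid glucosyltransferase, differed by 0.35 ± 0.18 (adjusted p = 0.161).

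The cytokinin N-glucosyltransferase UGT76C2 passed with 0.75 ± 0.26 (adjusted p = 0.0404, limma), but not after either scaling (0.0719 and 0.0709 with quantile normalization and median centring), with no filter on dim probe sets (0.0617) or without silwet 4 and silwet 7 (0.0552). Leaving out SA 1, 2, 7 or 8 or silwet 2, 3, 7, 8 or 9 also ended its call, with adjusted p between 0.0514 and 0.123. Its neighbour UGT76C1, of the same activity, differed by 0.42 ± 0.30 (adjusted p = 0.332). UGT74D1, which acts on auxins, differed by -0.13 ± 0.19 (adjusted p = 0.649). UGT76D1 differed by 0.36 ± 0.21 (adjusted p = 0.228).

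UGT87A2, known for a part in flowering time, rose with a small spread. It had 134.4, 176.8 and 163.8 on SA arrays and 144.9, 122.0 and 103.1 on silwet arrays of set 1, against 52.9 to 130.4 on the 12 arrays of sets 2 and 3. The difference was 0.88 ± 0.15 (SE, n = 6 and 12; adjusted p = 0.000396, limma), and in each treatment taken alone its set 1 arrays lay above the others.

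UGT84A3, which makes hydroxycinnamate glucose esters, rose by 0.71 ± 0.18 (SE, n = 6 and 12; adjusted p = 0.00731, limma), with 97.4 to 244.2 in set 1 against 60.8 to 131.8 in sets 2 and 3. Its neighbour UGT84A4 differed by 0.41 ± 0.18 (adjusted p = 0.11). The flavonol rhamnosyltransferase UGT78D1 fell by 0.80 (SE 0.24; adjusted p = 0.0208), with 37.0 to 136.4 in set 1 and 83.0 to 247.2 in sets 2 and 3. On SA arrays the mean of UGT78D1 was 52.4 in set 1 against 170.4 in set 2 and 107.2 in set 3. On silwet arrays its means lay closer together, at 100.1, 120.4 and 109.4 in sets 1, 2 and 3. Its call was lost without SA 1, SA 3 or silwet 3, with adjusted p in limma between 0.0567 and 0.0793. The flavonoid glucosyltransferase UGT78D2 differed by -0.16 ± 0.28 (adjusted p = 0.717). UGT76E12 rose by 1.16 ± 0.30 (adjusted p = 0.00899), with 14.4 to 27.9 in set 1 and 2.27 to 18.5 in sets 2 and 3. Next to it in the genome, UGT76E11, which acts on flavonoids, differed by 0.00 ± 0.19 (adjusted p = 0.998).

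The other genes that fell in set 1 were UGT72B3, UGT85A4 and UGT85A5. UGT72B3 had 18.1 to 63.0 in set 1 against 41.4 to 159.7 in sets 2 and 3, a difference of -1.25 ± 0.27 (SE, n = 6 and 12; adjusted p = 0.00234, limma). UGT85A4 had 10.2 to 33.7 in set 1 against 27.0 to 66.4, a difference of -1.09 ± 0.22 (adjusted p = 0.00122). UGT85A5 had 12.9 to 38.9 against 27.9 to 72.9, a difference of -0.84 ± 0.22 (adjusted p = 0.00868). UGT72E1 and UGT72E2, which glucosylate monolignols, did not pass.

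**Figure D5:**
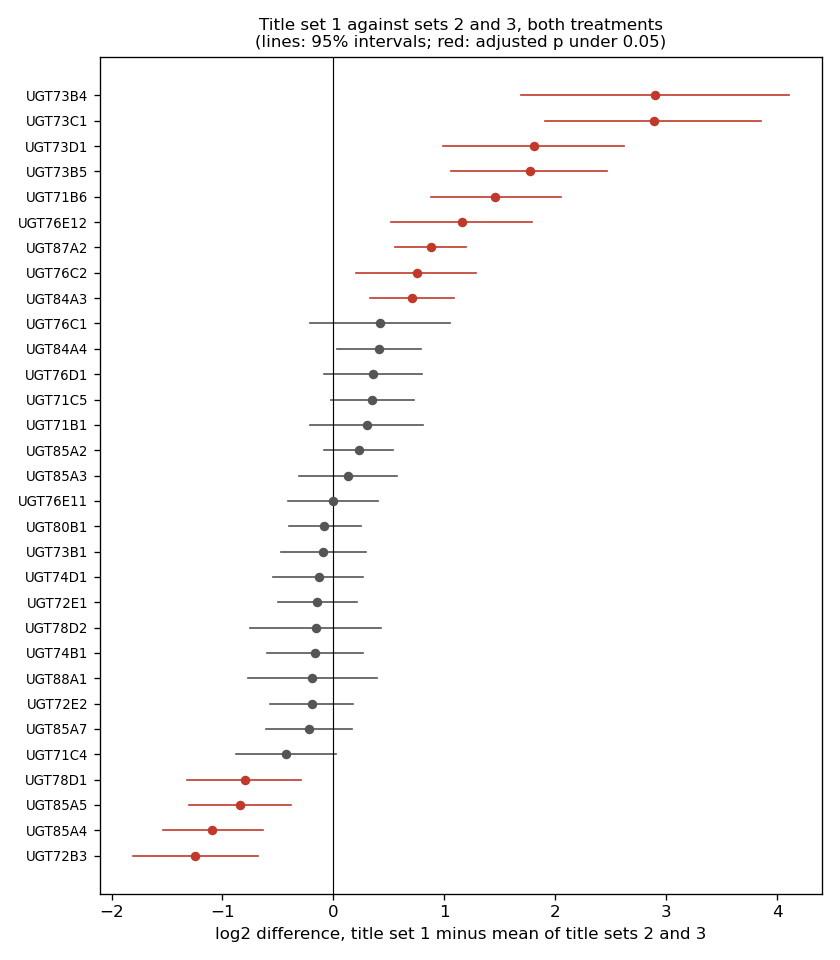
The log2 difference of title set 1 minus the mean of sets 2 and 3, over both treatments, is given for each of the 31 tested UGT genes with its 95% interval, in order of size, with genes past an adjusted p of 0.05 in red. The 9 red points above 0 run from UGT84A3 (0.71) to UGT73B4 (2.90), whose value depends on the pseudocount, and the 4 below 0 from UGT78D1 (-0.80) to UGT72B3 (-1.25).

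The title sets were also compared within each treatment. Among SA arrays alone, 8 UGT genes were higher on all 3 arrays of set 1 than on all 6 of sets 2 and 3, where 14.5% of all probe sets were, and 6 were lower, where 16.6% were. Among silwet arrays alone, 3 were higher (UGT73C1, UGT76D1 and UGT87A2), where 4.19% of all probe sets were, and none was lower, where 3.32% were. The 8 include UGT73B4, UGT73C1, UGT71B6 and UGT76E12, which were tested only because they were high in set 1. Of the 3, this holds for UGT73C1 and for UGT76D1, whose mean in sets 2 and 3 was 10.65. Both counts of higher genes are descriptions. Whether these counts differ between the treatments was not tested, and silwet 1, which scored with sets 2 and 3, was 1 of the 3 silwet arrays of set 1. Without silwet 1, 14 UGT genes and 5560 probe sets in all passed for set 1 against sets 2 and 3, in place of 13 and 4103. These 14 were the same 13 and UGT71C4.

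Both members called with SA in set 1 are numbered UGT73, of 5 tested. UGT76B1, which is no member, was also called there. No difference between families was tested. The 13 members called for set 1 against sets 2 and 3 belong to UGT71, UGT72, UGT73, UGT76, UGT78, UGT84, UGT85 and UGT87. By the order of genes in the TAIR10.1 table, 30 of the 46 members lie in 13 clusters with at most 1 gene between neighbours. UGT73B5 and UGT73B4 adjoin and were both high with SA in set 1. UGT73D1 lies beside UGT73C7, which was dim, at 5.84, 5.54 and 8.58 on SA arrays and 3.39, 2.40 and 3.87 on silwet arrays of set 1. UGT73C1 rose in set 1 while UGT73C2 beside it stayed at 0.225 to 4.62 there. In the cluster of UGT85A7, UGT85A2, UGT85A5 and UGT85A3, UGT85A5 alone passed for set 1. Whether probes of 1 gene also bind a relative was not tested, since probe sequences were not used here.

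The list of 15 dim genes holds UGT71B5, UGT71B8, UGT71C1, UGT71C2, UGT71C3, UGT72E3, UGT73C2, UGT73C7, UGT74F1, UGT76E1, UGT76E2, UGT78D3, UGT84A1, UGT84B1 and UGT84B2. UGT71C2, next to the threshold, had 25.3, 16.9 and 18.2 on SA arrays and 27.1, 22.9 and 19.7 on silwet arrays of set 1, against 1.20 to 11.7 on the arrays of sets 2 and 3. No array of sets 2 and 3 reached those of set 1. UGT78D3, UGT84A1 and UGT72E3 had the lowest means. Their highest signals on any array were 2.58, 4.84 and 1.88, and they were at the floor in both treatments. When no probe set was left out as dim, UGT71C1 and UGT71C2 were called in set 1 against sets 2 and 3, among 14 UGT genes. The share of all probe sets called in that fit is not given here, so the count is a description.

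Other enzymes of conjugation were looked at beside the family. Of 10 tested glutathione S-transferase genes, which join glutathione to foreign compounds, 1 rose with SA in set 1. This was GSTU22, at 50.4 to 156.5 on SA arrays and 16.1 to 23.2 on silwet arrays (1.95 ± 0.44, SE, n = 3 each; adjusted p = 0.0458, limma). Of 11 beta-glucosidase genes, which can release sugar from glucosides, BGLU44 fell with SA in set 1, with 744.8 to 844.3 on SA arrays and 1301 to 1571 on silwet arrays (-0.86 ± 0.14, adjusted p = 0.0149). Of 5 serine carboxypeptidase-like genes, a family whose acyltransferases use glucose esters, SCPL34 fell, with 16.5 to 32.8 on SA arrays and 60.6 to 99.1 on silwet arrays (-1.62 ± 0.30, adjusted p = 0.0183). None of the 15 cytochrome P450 genes, oxygenases that can act before conjugation, was called there. Of all probe sets, 0.458% were called higher with SA in set 1 and 0.352% lower. Whether any list differs from these shares was not tested. No listed gene was called over all 9 arrays a treatment, or in set 2 or set 3 alone.

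For set 1 against sets 2 and 3, 11.6% of all probe sets were called higher and 14.2% lower. Whether any list differs from these shares was not tested. Of 10 tested glutathione S-transferase genes, GSTU22 and GSTU25 rose and GSTL3, GSTU18 and GSTU20 fell. Of the 15 tested cytochrome P450 genes, CYP84A4 rose and 5 of the CYP71B group fell (CYP71B5, CYP71B6, CYP71B35, CYP71B36 and CYP71B37). Of 11 tested beta-glucosidase genes, BGLU31 and BGLU46 rose and BGLU44 fell. Of 5 tested serine carboxypeptidase-like genes, SCPL27, SCPL34 and SCPL49 fell. CYP84A4 had the largest of these differences, 2.88 ± 0.32 (SE, n = 6 and 12; adjusted p = 5.13e-06, limma). BSMT1, which makes methyl salicylate, was the 1 listed gene of SA synthesis and conversion whose symbol matched a probe set naming 1 gene. It rose by 1.34 ± 0.41 (adjusted p = 0.0221, limma). No symbol of the list of ABC and MATE transporters matched a probe set naming 1 gene. Since 8794 of the 22810 probe sets had no gene listed, a missing match does not show that the array lacks a gene.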

How the data were processed

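Each of 18 samples of Van-0 total RNA was read on its own ATH1 array after biotin labelling, per the labels. The deposited intensity values, 1 per probe set and array, are MAS5 signals per the submitters' processing notes, with the version not given in the sources used here. MAS5 treats each array alone and leaves dim signals noisy. A level shift shared by most transcripts would be removed by its scaling (trimmed mean of 100 without the 2% at each end).

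Groups follow the treatment that each description states, and arrays are named by treatment and replicate number in title order. Since nothing states that the samples are separate plants, the p-values cover only sample-to-sample spread, part of which may be technical. Their number, 9 a treatment and 3 a treatment and title set, limits the precision. No pair of arrays held identical values (smallest median absolute log2 difference 0.229).

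The members, lists, title sets and tests were chosen with earlier results of these data known. Signals were taken as log2(signal + 2), without 64 AFFX control probe sets and the dimmest 30% by mean over 18 arrays, and fitted with limma 3.58.1 in R 4.3.3 (lmFit, eBayes with trend). The treatments were compared over 9 against 9 arrays. Title sets were compared in a fit of the 6 treatment and set means (SA against silwet within each set, and the interaction) or of treatment plus set (set 1 against sets 2 and 3, set 2 against set 3, and all sets). The fit was tested on simulated data.

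Probe sets were named by the platform annotation, with symbols updated through the TAIR10.1 table. Of 22810, 13513 had 1 gene, 503 several and 8794 none listed, and 13436 matched the table. A gene with several probe sets was to be represented by that of the highest mean. The 3 probe sets that name a UGT and another gene were fitted with all others but not counted as members. Values are given for members past the threshold in any comparison, the members with the smallest p in each (6 over all arrays, 3 in each title set, 5 for the F-tests), those of the highest and lowest mean, and UGT74F1, UGT74F2 and UGT75B1. Other genes named with values (UGT71C3, UGT71C5, UGT73B1, UGT73C2, UGT73C7, UGT76C1, UGT76E11, UGT78D2, UGT74D1, UGT71C1 and UGT71C2) were chosen after their values were seen, as relatives by role, position or closeness to the threshold.

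Samples that share a Rep number deviated together from their treatment and title set means. The correlations were 0.35, 0.42 and 0.32 for Rep numbers 1, 2 and 3, so the Rep number was taken to pair samples. The SEs, p-values and calls come from fits that leave out this pairing unless a block is named. The fit with the Rep number as a block is given where it changes a call. The 9 pairs that also share the title set correlated at 0.02 to 0.53.

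Alternatives covered the pseudocount, the dimness filter, quantile normalization, median centring, the trend, array weights, blocks, and each array or silwet 4 and silwet 7 left out.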

Additional observations from a re-analysis of the deposited data

Results flagged for a closer look

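UGT71C5 had a signal of 165 on silwet 1, set apart from the 46.0 to 80.4 of the other 8 silwet arrays. UGT73B1 had 17.1 on SA 2, below the 26.3 to 38.7 of the other 8 SA arrays. UGT88A1, the member with the highest mean signal, had 245 on SA 1, below the 520 to 823 of the other 8 SA arrays. These came from a look at 62 groups of 9 arrays on the log2 scale, where about 3.1 would stand apart by chance.

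UGT72B3 had SA minus silwet differences of opposite sign in title sets 1 and 2, at -0.93 and 0.92 on the log2 scale, which did not pass (adjusted p = 0.214 and 0.45, limma). Its arrays did not overlap in either set, as held downward for 10.1% of all probe sets in set 1 and upward for 7.66% in set 2. The test of its interaction between treatment and title set did not pass (adjusted p = 0.142, limma). UGT73B5 had differences of 1.65 in set 1, which passed, and -1.10 in set 2, which did not (adjusted p = 0.45, limma). Its arrays did not overlap in either set, as held upward for 8.62% of all probe sets in set 1 and downward for 10.5% in set 2. Its interaction passed (adjusted p = 0.0378, limma).

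UGT71C1, too dim on average to be tested, had signals of 14.1, 15.8 and 10.4 on the SA arrays of set 1, against 0.977 to 5.93 on all silwet arrays, and 0.637 to 3.47 on the other SA arrays. It was the 1 such case among 18 probe sets that name a UGT gene other than UGT76B1 and lie outside the tested members. The share of all probe sets that meet this rule was not computed, so the count is a description.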

How the results depend on the processing

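For SA against silwet over all arrays, no UGT gene was called under any alternative, and the title set as a block called 1 probe set in all. In title set 1, the number of probe sets called, 129, became 78 with median centring, 2464 with array weights, 280 with the Rep number as a replicate block and 324 without silwet 4 and silwet 7. The UGT genes called, 2, became 1 (UGT73B5) with no filter on dim probe sets or without the trend, and 7 with array weights. In set 2 array weights called 1360 probe sets and 2 UGT genes, and in set 3 they called 43 probe sets. For the interaction, 27 probe sets became 56 with quantile normalization, 8 with median centring, 3956 with array weights, 184 with the replicate block and 437 without silwet 4 and silwet 7. The UGT genes called for it, 1, became 0 with no filter or with median centring, 2 with a pseudocount of 16, the replicate block, or without silwet 4 and silwet 7, and 7 with array weights. For the title sets, 3077 became 7213 with array weights, and for set 1 against sets 2 and 3, 4103 became 7589. For set 2 against set 3, 5 became 8 with quantile normalization, 9 with array weights or the replicate block, and 1 without silwet 4 and silwet 7. The estimation of array weights stopped before its tolerance in some fits.

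Leaving out 1 array at a time gave 12 (without SA 2) to 234 (without silwet 4) probe sets and 0 to 3 UGT genes in set 1, 0 to 1 probe sets in set 2, and 5 to 354 (without silwet 4) probe sets with 0 to 2 UGT genes for the interaction. It gave 2044 to 4543 probe sets with 8 to 14 UGT genes for the title sets, 2978 to 5560 with 11 to 14 for set 1 against sets 2 and 3, and 1 to 10 for set 2 against set 3. No UGT gene that was called, or named for its small p in a comparison, changed the sign of that difference under these alternatives. Small differences of other UGT genes did change sign with scaling. With median centring this held for 3 genes in set 1, 2 in set 2, 6 in set 3 and 2 for set 2 against set 3. The median difference over the UGT genes also changed sign, in set 1 (0.07) to -0.02 without SA 2 and -0.01 with array weights. For set 1 against sets 2 and 3 (0.13) it became -0.10 with the lowest 50% left out as dim. The replicate block of 9 pairs called 0 probe sets over all arrays, and the Rep number as a block changed no other call of a UGT gene than those given above. With 3 arrays a group and dim signals, small differences of the dim genes were not detectable.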

Other observations

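A probe set that names both UGT73B2 and UGT73B3, close relatives of UGT73B4 and UGT73B5, lies outside the family counts because its signal cannot be split between them. It had 744.0, 696.1 and 460.1 on the SA arrays and 535.4, 437.7 and 332.0 on the silwet arrays of title set 1, against 63.4 to 260.7 on the 12 arrays of sets 2 and 3. Set 1 stood above sets 2 and 3 by 1.86 on the log2 scale (adjusted p = 1.99e-05, limma), without overlap in either treatment. SA minus silwet within set 1 was 0.54 (adjusted p = 0.63).

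UGT76B1, the SA glucosyltransferase that was left out of the members, had 1561, 1356 and 1398 on the SA arrays of set 1 and 188.1, 62.7 and 121.0 on the silwet arrays, a difference of 3.65 (adjusted p = 0.00098, limma).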
